A study of Homo sapiens with 36 samples.

Results

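The 9 genes described here work in folate metabolism and in the supply of thymidylate and deoxynucleotides, and were taken from 62757 genes listed in the count tables. They are SLC19A1, FPGS, GGH, SHMT1, MTHFD1, MTHFD2, TYMS, TK1 and RRM2. The members were selected by their roles, with results of these data already known, and SLC19A1 was selected for its fall after oxaliplatin (OXPT). Its values in OXPT libraries, and every comparison that uses them, are therefore a description, in all kinds of cells. All 9 members passed the count minimum, a mean of at least 64 reads in at least 1 group, which left 12356 genes to be tested.

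The libraries are polyA RNA-seq of HCT-116, a human colorectal carcinoma cell line, either wild type (WT) or FBXW7-/- (KO). FBXW7 is the substrate receptor of a ubiquitin ligase. Each of 8 groups held 3 libraries. KO cells carried for 48 h either control esiRNA (KO esiCT), esiRNA against HDAC4 (KO esiHDAC4), or esiCT together with PROTAC #11, a degrader of class IIa histone deacetylases (KO #11). WT cells formed the other groups. Each kind of cell was left untreated or received OXPT, a platinum compound that crosslinks DNA, at 50 µM for the last 24 h. The dose of #11 is 1 µM in one label entry and 10 µM in another. The titles of the 6 WT libraries name control esiRNA whereas their treatment entries name esiHDAC4, so the esiRNA of the WT groups is not settled. The KO cells are a commercial line, and the labels do not say whether the 3 libraries of a group came from separate cultures, so p-values measure only the spread between these libraries.

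Reduced folate enters cells mainly through SLC19A1, is held there as polyglutamates made by FPGS, and is released from them by GGH. Serine hydroxymethyltransferases and the MTHFD enzymes load and interconvert one-carbon units on the folate. TYMS spends such a unit to make dTMP from dUMP, a step blocked by 5-fluorouracil, the usual partner of OXPT in colorectal cancer therapy. TK1 makes the same nucleotide by salvage and RRM2 is a subunit of ribonucleotide reductase, which makes the deoxynucleotides.

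FBXW7 mRNA did not tell the libraries labelled KO from those labelled WT. It stood at 15.3, 17.1 and 17.9 CPM in untreated KO esiCT and at 16.8, 23.3 and 22.6 in untreated WT (difference -0.32 log2, SE 0.31, edgeR adjusted p = 1), and at 13.8 to 54.7 CPM over the libraries of the 6 KO groups. A gene count does not show which part of the gene was altered, so these counts check neither label, and KO and WT stand below for the labels.

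The library totals ranged from 10725966 to 20527222 unstranded gene counts (median 14510758). Unmapped reads had a median of 9.29% over the 24 libraries and were most frequent, at 22.3%, in replicate 3 of KO esiCT OXPT. Libraries numbered 3 often stood apart: MTHFD1 was lowest in number 3 in 8 of 8 groups and RRM2 in 7 of 8, while TK1 was highest in number 3 in 6 of 8. The markers of epithelial cells EPCAM, KRT8, KRT18, KRT19 and CDH1 were all present, with CDH1 the lowest at group means of 56.0 to 95.8 CPM. Of 8 markers of other cell types, 1 passed the count minimum, the collagen gene COL1A1 at 34.8 to 56.2 CPM. PTPRC, the marker of leukocytes, did not exceed a group mean of 0.0484 CPM. The summed group means of the 5 epithelial markers were 5667 to 7437 CPM untreated and 11092 to 14194 after OXPT, and those of the 8 other markers 37.0 to 39.5 and 45.8 to 57.1. Their part in the OXPT results was not tested. HDAC4 mRNA averaged 10.8 CPM in untreated KO esiHDAC4 against 18.97 in KO esiCT, a difference of -0.82 log2 (SE 0.24, edgeR adjusted p = 0.561).

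Levels are given as CPM, each gene's share of the library's counts after TMM scaling, which sets libraries side by side by the bulk of their genes. Amounts are relative to total mRNA, and in bulk libraries a smaller number of cells and less RNA per cell cannot be told apart. A call needed 2 things: a fold change over 1.5, and a p-value from edgeR's quasi-likelihood test that stayed under 0.05 after Benjamini-Hochberg adjustment across the 12356 genes. SE is the approximate standard error of a log2 fold change.

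**Figure D1:**
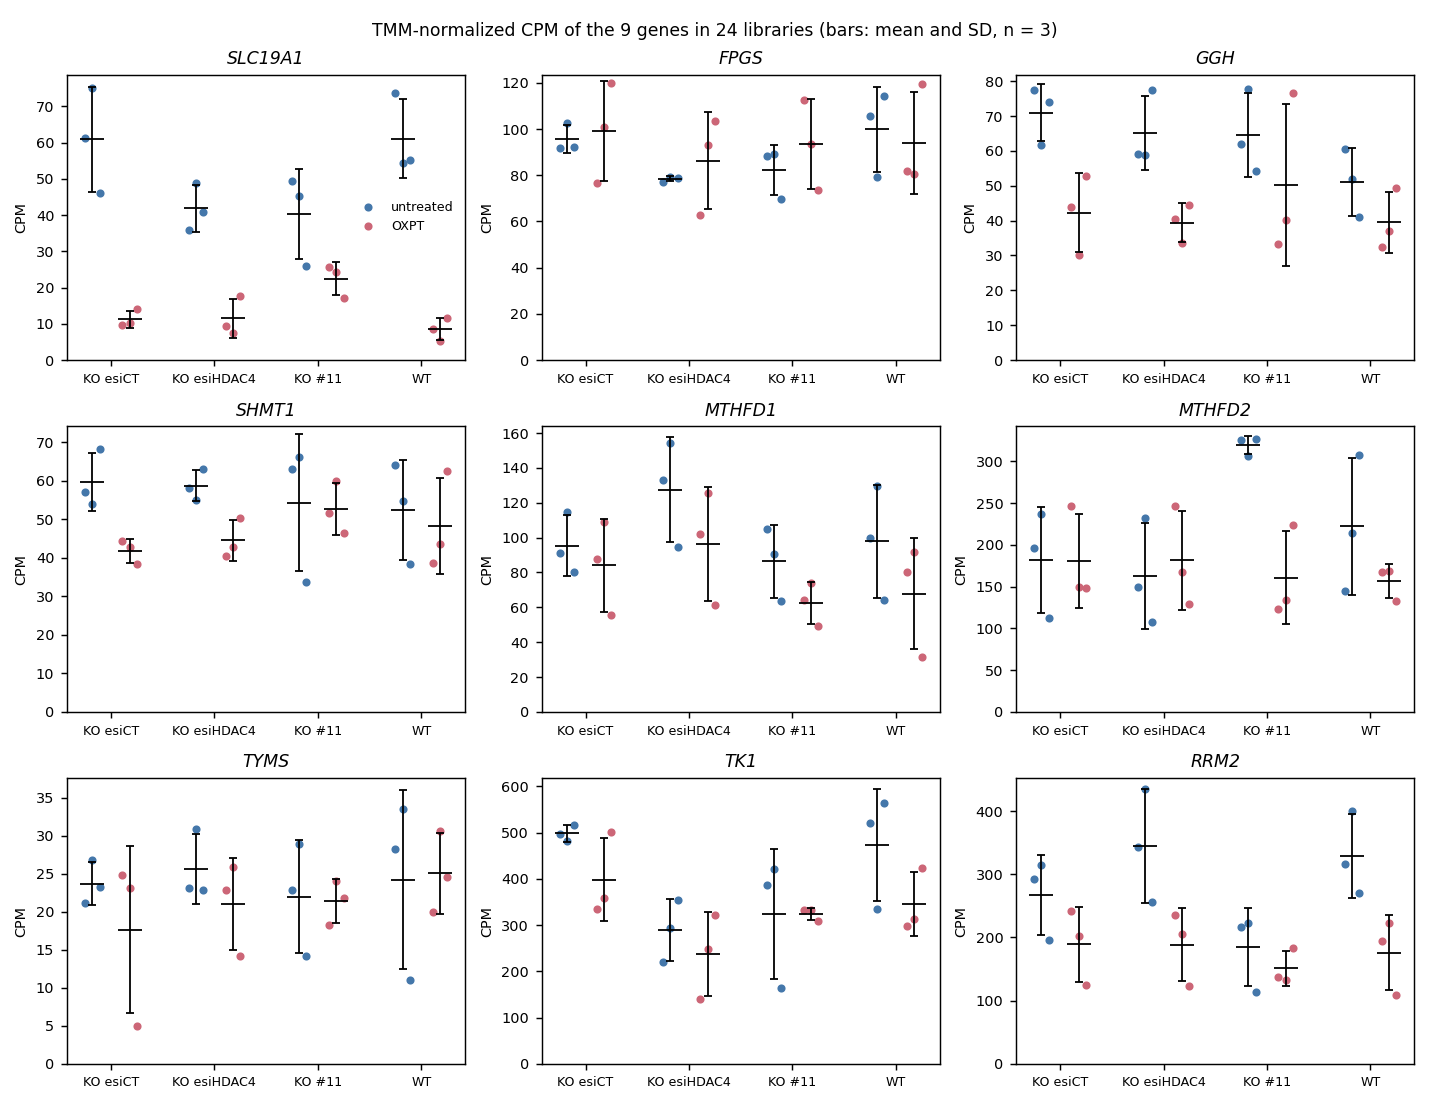
The vertical axes give CPM in each library on linear scales from 0, with untreated libraries in blue and OXPT libraries in red for the 4 kinds of cells. Horizontal marks and bars are the mean and SD of 3 libraries. SLC19A1 spans 5.39 to 75.0 CPM, and its OXPT libraries in KO esiCT, KO esiHDAC4 and WT lie at 17.6 CPM or below, under every untreated library.

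Promoters of members and of 1 further enzyme are shown for the letters of 2 known promoter elements. The windows run from 250 bases before to 50 after a RefSeq start site (GRCh38.p14) and are given 5′ to 3′ on the gene's strand. Capitals mark the E2F letters TTTGGCGC, TTTCCCGC, TTTGCCGC or TTTCGCGC, and the box CCAAT, on either strand. E2F factors drive genes of S phase, and CCAAT boxes are bound by NF-Y. SLC19A1 is shown as the member selected for its fall after OXPT, TYMS, TK1 and RRM2 as the makers of deoxynucleotides, and DUT, which removes dUTP, as a gene that was called lower in all 4 kinds of cells.
SLC19A1, chr21:45541797-45542096, minus strand: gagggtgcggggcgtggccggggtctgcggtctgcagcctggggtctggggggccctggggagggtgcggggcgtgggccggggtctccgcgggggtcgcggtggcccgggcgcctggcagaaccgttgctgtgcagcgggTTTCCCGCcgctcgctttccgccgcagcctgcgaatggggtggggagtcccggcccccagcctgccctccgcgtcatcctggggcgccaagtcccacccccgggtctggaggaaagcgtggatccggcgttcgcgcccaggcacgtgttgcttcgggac
TYMS, chr18:657403-657702, plus strand: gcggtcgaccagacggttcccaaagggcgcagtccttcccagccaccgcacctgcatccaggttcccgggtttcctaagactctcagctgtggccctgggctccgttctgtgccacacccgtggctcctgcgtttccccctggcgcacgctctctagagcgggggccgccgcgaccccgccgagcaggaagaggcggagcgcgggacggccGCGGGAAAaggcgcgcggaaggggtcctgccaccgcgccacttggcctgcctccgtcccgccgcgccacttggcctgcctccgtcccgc
TK1, chr17:78187003-78187302, minus strand: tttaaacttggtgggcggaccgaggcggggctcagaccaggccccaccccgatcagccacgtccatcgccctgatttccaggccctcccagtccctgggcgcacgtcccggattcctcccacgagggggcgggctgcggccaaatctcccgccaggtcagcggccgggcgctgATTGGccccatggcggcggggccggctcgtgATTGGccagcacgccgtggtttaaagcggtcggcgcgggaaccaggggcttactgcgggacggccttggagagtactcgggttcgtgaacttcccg
RRM2, chr2:10122489-10122788, plus strand: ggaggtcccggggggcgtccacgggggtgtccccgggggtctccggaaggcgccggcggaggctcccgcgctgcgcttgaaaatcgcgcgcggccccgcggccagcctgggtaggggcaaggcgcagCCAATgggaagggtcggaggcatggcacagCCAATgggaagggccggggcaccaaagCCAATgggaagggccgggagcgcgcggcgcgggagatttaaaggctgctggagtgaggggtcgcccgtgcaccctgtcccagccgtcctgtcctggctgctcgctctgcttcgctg
DUT, chr15:48331947-48332246, plus strand: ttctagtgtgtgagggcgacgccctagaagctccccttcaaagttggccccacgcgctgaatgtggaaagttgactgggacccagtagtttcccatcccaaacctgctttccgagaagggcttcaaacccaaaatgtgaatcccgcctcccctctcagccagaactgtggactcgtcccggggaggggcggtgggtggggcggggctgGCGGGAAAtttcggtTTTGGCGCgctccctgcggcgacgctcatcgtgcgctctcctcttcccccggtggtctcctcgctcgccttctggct
The SLC19A1 window shown holds 1 match to the E2F letters and the other 3 windows of that gene hold none. In the windows shown, TYMS holds 1 match, DUT holds 2, TK1 holds 2 CCAAT boxes and RRM2 holds 3. The other windows of DUT and TK1 hold neither element, and the other window of RRM2 holds 1 CCAAT box. Over 35116 such windows in the table, 3.31% held the E2F letters and 34.6% held CCAAT. Counted by gene, 2 of the 8 members with an entry held the E2F letters in any window and 6 held CCAAT, against 3.99% and 39.7% of 27305 genes. In a list of 15 S-phase genes, 10 of the 12 with an entry held the E2F letters. A match is a match of letters only.

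SLC19A1, the reduced folate carrier, had the widest range of the members, with group means 7.15-fold apart. In untreated cells it stood at 61.4, 75.0 and 46.2 CPM in KO esiCT, at 73.6, 54.4 and 55.2 in WT, at 35.96, 48.9 and 40.7 in KO esiHDAC4, and at 49.4, 45.3 and 26.0 in KO #11. After OXPT it stood at 9.54, 10.3 and 13.9 CPM in KO esiCT and at 8.64, 5.39 and 11.6 in WT. These means are 5.43-fold and 7.15-fold below the untreated means, and no OXPT library reached an untreated one.

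In KO esiHDAC4 SLC19A1 measured 9.41, 7.39 and 17.6 CPM after OXPT. The log2 difference was -1.87 (SE 0.33), 3.66-fold, and no OXPT library reached an untreated one. In KO #11 the OXPT libraries measured 25.5, 24.4 and 17.2 CPM. The mean was 22.4 ± 4.54 CPM (SD, n = 3) against 40.2 ± 12.5 untreated, a log2 difference of -0.85 (SE 0.32), and the 3 OXPT libraries lay below the 3 untreated ones. Without the libraries numbered 3 of every group the difference was -0.97.

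By group means of the unstranded counts, SLC19A1 was ordered WT untreated, KO esiCT untreated, KO esiHDAC4 untreated, KO #11 untreated, KO #11 OXPT, KO esiHDAC4 OXPT, KO esiCT OXPT and WT OXPT. Of the 7 steps in this order, the ranges of neighbouring groups were apart only between KO #11 untreated and KO #11 OXPT. Under OXPT the KO #11 libraries lay above all 3 WT libraries, by 1.39 log2 (SE 0.33), and above all 3 KO esiCT libraries, by 1.00 (SE 0.33). The OXPT response with #11 minus that with esiCT alone was 1.60 log2 (SE 0.46). These 3 values use OXPT libraries, for which SLC19A1 was selected, and support nothing.

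SLC19A1 (ENSG00000173638.19) lies on the minus strand of chromosome 21 at 45493572-45573365 in GRCh38, and its 3′ part runs into COL18A1, a collagen gene on the opposite strand. Of 11235 exonic bases of SLC19A1 in GENCODE 44, 1563 lie on COL18A1 exons, 3662 in COL18A1 introns and 6010 outside that gene. The libraries held nearly equal counts on either strand (ratio 1.00 to 1.02), so reads of the shared exons cannot be given to either gene, and unstranded counting leaves them out. For SLC19A1 this removed 57.4% of the counts that the strand columns held, and for COL18A1 38.6%. COL18A1 fell in all 4 kinds of cells, by 2.80 in KO esiCT, 2.60 in WT, 2.28 in KO esiHDAC4 and 1.57 in KO #11 on the log2 scale, with edgeR adjusted p-values of 2.06e-06, 3.25e-06, 1.08e-05 and 0.00042. Its CPM in KO #11 were 47.6, 39.5 and 39.1 after OXPT and 115, 105 and 155 untreated.

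The strand columns count the shared reads for both genes, so they hold COL18A1 reads and are not a separate measure of SLC19A1. In KO esiCT, WT and KO esiHDAC4 their log2 changes for SLC19A1 were like those of the unstranded column. They were -2.39 (reverse) and -2.57 (forward) in KO esiCT, -2.67 and -2.79 in WT, and -2.13 and -2.02 in KO esiHDAC4. In KO #11 they were -1.26 (SE 0.28) and -1.14 (SE 0.26), beside -0.85 in the unstranded column. In untreated KO #11 replicate 3, the unshared part was 23.4% of the strand columns, against 40.3% and 38.6% in the other replicates. Without TMM scaling, the strand columns together held 128, 122 and 120 CPM in untreated KO #11 and 61.0, 51.4 and 44.8 after OXPT. The low unstranded value of untreated replicate 3, 26.0 CPM, thus has no counterpart in the strand columns. These columns also hold COL18A1 reads, and unstranded COL18A1 was highest in that library, at 155 CPM against 115 and 105. They therefore cannot show whether SLC19A1 was lower there, and the cause of the low value was not tested. How far reads from COL18A1 introns enter the SLC19A1 counts was not tested.

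**Figure D2:**
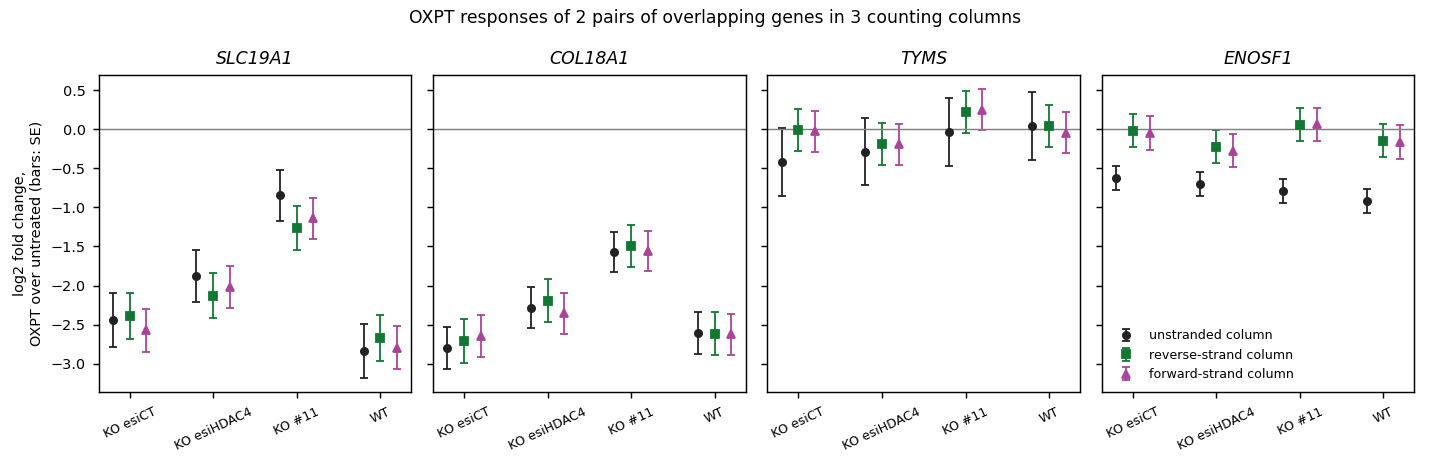
The vertical axis gives the log2 fold change of OXPT over untreated with its SE, and the marks stand for the 3 counting columns in 4 kinds of cells. SLC19A1 and COL18A1 lie below 0 in every column, TYMS lies between -0.41 and 0.25, and ENOSF1 is below 0 in the unstranded column but between -0.27 and 0.06 in the strand columns.

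Of the 9 members, 1 was called lower after OXPT in KO esiCT, in WT and in KO esiHDAC4, SLC19A1 each time, and 0 in KO #11. With the replicate number as a block the members called were 2 in KO esiCT, 2 in WT and 2 in KO esiHDAC4. The share of all genes called under that block is not given here, so these counts are not read as a result. Over all genes tested and without the block, the called share was 11.3% in KO esiCT, 10.7% in WT, 12.0% in KO esiHDAC4 and 9.51% in KO #11. The share called lower was 5.08%, 5.60%, 5.54% and 3.57%. A count of 1 in 9 is close to the shares called in either direction, and nothing is read from it, since SLC19A1 was selected for this fall. At an unadjusted p under 0.05, 2 members passed in KO #11, SLC19A1 and MTHFD2, and DESeq2 called 1. Of the 12356 genes tested, 2900 passed there and DESeq2 called 1557.

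**Figure D3:**
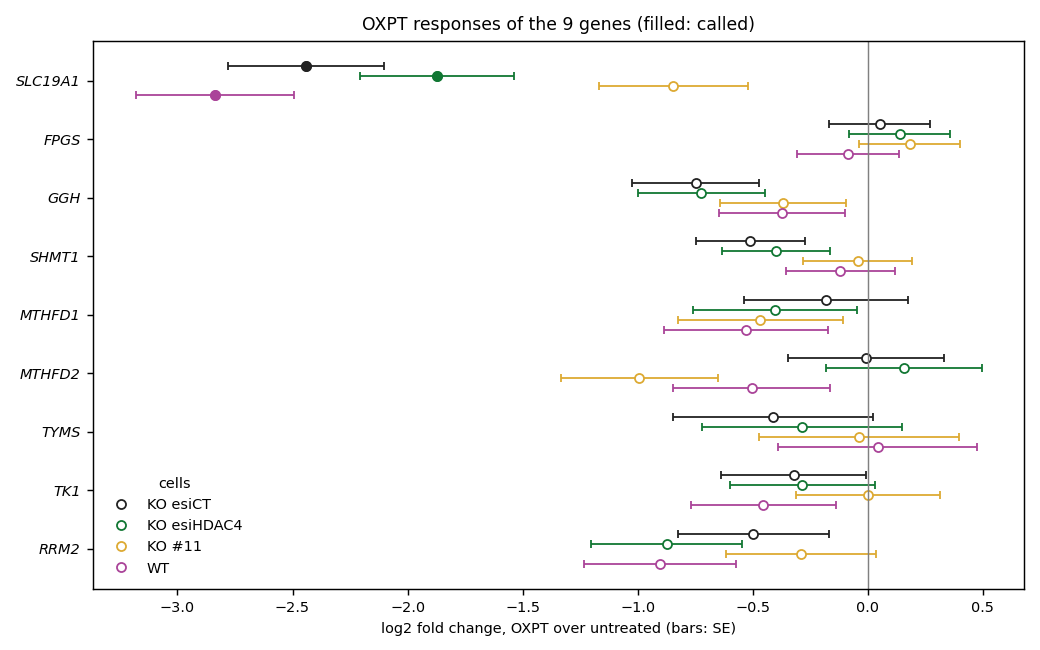
The horizontal axis gives the log2 fold change of OXPT over untreated for each gene, with bars for its SE and colours for the 4 kinds of cells. Filled circles are called; only SLC19A1 has any, in KO esiCT, WT and KO esiHDAC4, while GGH, RRM2 and MTHFD2 have open circles between -0.99 and 0.16.

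FPGS, which adds glutamates to folate, was the steadiest member, with group means from 78.5 to 99.8 CPM. Its OXPT changes lay between -0.09 and 0.18 log2 (SE 0.22 each) and none was called. GGH, the hydrolase that takes the glutamates off again, pointed down in all 4 kinds of cells. In KO esiCT it measured 77.5, 61.7 and 73.9 CPM untreated and 43.96, 30.3 and 52.7 after OXPT. The groups did not overlap, and the difference of -0.75 log2 (SE 0.28) gave an edgeR adjusted p of 0.083, without a call. With the replicate number as a block it was -0.77 (adjusted p = 0.0462) and called. In KO esiHDAC4 the 3 OXPT libraries of GGH, at 40.4, 33.5 and 44.5 CPM, lay below the untreated 59.1, 58.9 and 77.4 (difference -0.72, SE 0.28, edgeR adjusted p = 0.0926). The replicate block gave no call there (adjusted p = 0.0582), and 5 of 34 alternatives did. In KO #11 and WT the groups overlapped, with differences of -0.37 each. In KO #11, GGH replicate 3 after OXPT stood at 76.7 CPM against 33.4 and 40.3 in the others.

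SHMT1, the cytosolic serine hydroxymethyltransferase, had group means from 41.8 to 59.7 CPM. Its groups did not overlap in KO esiCT, at 57.0, 53.9 and 68.2 CPM untreated and 44.4, 42.9 and 38.3 after OXPT (difference -0.51 log2, SE 0.24, edgeR adjusted p = 0.175), nor in KO esiHDAC4 (difference -0.40, adjusted p = 0.306). Neither was called, and in WT and KO #11 the SHMT1 libraries overlapped. MTHFD1, the cytosolic trifunctional folate enzyme, ranged from 62.5 to 127 CPM over group means. Its libraries overlapped in every comparison of OXPT with untreated cells, at differences of -0.53 to -0.18 (SE 0.36 each). The MTHFD1 log2 ratio within replicate numbers was below 0 in 12 of 12 pairs. That count was 12 for SLC19A1, selected for its fall, 11 for RRM2 and TK1, and 10 for GGH and SHMT1. It was 9 for TYMS, 7 for MTHFD2 and 4 for FPGS.

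MTHFD2, the mitochondrial dehydrogenase and cyclohydrolase of the one-carbon pathway, was highest in mean in untreated KO #11. Untreated KO #11 libraries held 325, 307 and 326 CPM of MTHFD2, above the 197, 237 and 113 of untreated KO esiCT (difference 0.81 log2, SE 0.34, edgeR adjusted p = 0.28, not called). After OXPT the KO #11 libraries held 123, 135 and 224 CPM, all below the untreated ones, at a difference of -0.99 (SE 0.34, edgeR adjusted p = 0.0728). The replicate block gave no call (adjusted p = 0.0666), DESeq2 gave one (adjusted p = 0.0413), and 6 of 34 alternatives called it. In KO esiCT and KO esiHDAC4 the corresponding MTHFD2 differences were -0.01 and 0.16, and in WT -0.51. The difference between the responses with and without #11 was -0.99 (SE 0.48, edgeR adjusted p = 0.722). Without number 3 of every group the MTHFD2 difference in KO #11 was -1.34 and called (adjusted p = 0.00265).

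Targets of ATF4, the transcription factor of the amino acid and stress response, were high in the same untreated KO #11 libraries. The 8 genes of that list had a median difference of 2.36 log2 from untreated KO esiCT, against -0.00 over all genes tested, and 8 of 8 pointed up. Of these 1 was called, ATF3, at 186, 189 and 136 CPM with #11 and 15.9, 19.4 and 19.4 without (3.22 log2, SE 0.65, edgeR adjusted p = 0.039). After OXPT in KO #11, 8 of the 8 pointed down, at a median of -2.46 log2, and 3 were called lower, ASNS, TRIB3 and SLC7A11. In WT 7 of the 8 pointed down after OXPT, at a median of -1.10, with 0 called. In KO esiCT and KO esiHDAC4, 4 and 2 pointed down, at medians of 0.005 and 0.997. ASNS, asparagine synthetase, fell by 2.89 log2 (edgeR adjusted p = 0.00624), from 7.05, 8.15 and 12.1 CPM to 0.701, 0.816 and 2.15. These are low levels, where depth limits the estimate. Among WT libraries, untreated replicate 3 had the highest TRIB3, at 500 CPM against 49.8 and 54.0, and the highest MTHFD2, at 308 against 144 and 214. The part of this programme in the MTHFD2 values was not tested.

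TYMS, thymidylate synthase, showed no change that could be told from the spread. It lies on chromosome 18 at 657653-673578, and 39.9% of its exonic bases lie on exons of ENOSF1 and 7.97% on those of TYMSOS, both on the other strand. Unstranded counting therefore kept only 2.22% to 13.5% of the TYMS counts that the strand columns held in a library. In KO esiCT TYMS measured 21.1, 26.8 and 23.2 CPM untreated and 24.8, 23.2 and 4.96 after OXPT. The low value is replicate 3, the library with the most unmapped reads, where the unshared part was 2.22% of the strand columns against 9.70% and 11.1% in the other replicates. The TYMS difference was -0.41 log2 (SE 0.44, edgeR adjusted p = 0.593) with that library and 0.02 (adjusted p = 0.991) without it. In the strand columns, which hold TYMS and ENOSF1 reads together, it was -0.01 and -0.03. In WT, KO esiHDAC4 and KO #11 the unstranded TYMS differences were 0.04, -0.29 and -0.04.

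ENOSF1, whose exons TYMS overlaps, was called lower in all 4 kinds of cells in the unstranded column, at -0.62 in KO esiCT and -0.92 in WT (edgeR adjusted p = 0.00996 and 0.000484). The strand columns gave -0.02 to -0.05 for ENOSF1 in KO esiCT and -0.15 to -0.16 in WT, without a call. The unshared share of ENOSF1 counts was 20.0% to 24.4% in untreated KO esiCT and 12.5% to 16.4% after OXPT.

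TK1, thymidine kinase, had its highest group mean in untreated KO esiCT, at 497, 481 and 517 CPM. In KO esiHDAC4 it measured 220, 293 and 354 CPM untreated, below all 3 KO esiCT libraries (difference -0.79 log2, SE 0.32, unadjusted p = 0.0217, edgeR adjusted p = 1). Under OXPT, TK1 stood at 141, 248 and 323 CPM in KO esiHDAC4 and at 335, 359 and 501 in KO esiCT (difference -0.75, SE 0.32, unadjusted p = 0.0279, adjusted p = 1). Neither was called, and these were the only members at an unadjusted p under 0.05 in each silencing comparison. With #11 the TK1 libraries also lay below those of KO esiCT, by 0.62 log2 untreated and by 0.30 under OXPT, without a call. OXPT itself changed TK1 by -0.45 to 0.00 log2 without a call.

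RRM2, the ribonucleotide reductase subunit that rises in S phase, was lower in mean after OXPT in all 4 kinds of cells. In WT the untreated libraries held 316, 401 and 270 CPM and the OXPT libraries 195, 224 and 109. The groups did not overlap, at -0.90 log2 (SE 0.33, edgeR adjusted p = 0.0843), and with the replicate number as a block RRM2 was called at -0.95 (adjusted p = 0.00966). In KO esiHDAC4 RRM2 went from 343, 436 and 256 CPM to 236, 205 and 124, at -0.87 (SE 0.33, adjusted p = 0.0905), and was called under the block at -0.89 (adjusted p = 0.013). In KO esiCT (-0.50) and KO #11 (-0.29) the libraries of RRM2 overlapped. In KO #11 replicate 3 RRM2 was 113 CPM untreated and 183 after OXPT, the reverse of the other numbers.

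Per length of exon, TK1 was the most abundant member at 128 to 270 CPM per kilobase over group means. SLC19A1 held 0.761 to 5.43 and GGH 3.71 to 6.69. RRM2 held 16.5 to 37.7 and MTHFD2 13.7 to 27.9 CPM per kilobase. TYMS held 7.29 to 10.6. The lengths cover all annotated exons, while the unstranded counts leave out shared reads, 89.6% of the strand-column counts for TYMS, 57.4% for SLC19A1, 39.6% for MTHFD2 and 37.0% for MTHFD1, so these members are not ranked.

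Comparisons other than those of OXPT with untreated cells called 1 of the members in all. The called share of all genes was 1.15% for KO #11 against WT under OXPT, where SLC19A1, chosen for its low OXPT values, was called. It was 0.510% for #11 in untreated KO cells, 0.121% for #11 under OXPT, 0.291% for KO against WT untreated, 0.138% for KO against WT under OXPT, 0.235% for KO esiHDAC4 against WT under OXPT, 0.00809% for HDAC4 silencing untreated and 0% for silencing under OXPT, each with 0 of 9 members. DESeq2 called 0 of 9 in each of these 7. At an unadjusted p under 0.05, 1 member passed in each silencing comparison and in each #11 comparison within KO cells, and 0 in the 3 comparisons of KO with WT. Of all genes, 394 and 380 passed for silencing, untreated and under OXPT, and 1705 and 1264 for #11. The 3 tests of a difference between OXPT responses (genotype, silencing, #11) called 0% of genes and 0 of 9 members by edgeR and by DESeq2, with 0, 0 and 1 members at an unadjusted p under 0.05. Over all genes, edgeR's 0 calls for silencing under OXPT stand beside 380 genes at an unadjusted p under 0.05 and 13 DESeq2 calls, and its 0 calls for the 3 differences beside 201, 19 and 863 genes and 0, 0 and 30 DESeq2 calls. Comparisons share libraries, so their values are not independent.

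Other genes of folate, serine and nucleotide metabolism formed a list of 52, of which 42 passed the count minimum. After OXPT the genes called lower were 5 of the 42 in KO esiCT, 4 in WT, 4 in KO esiHDAC4 and 5 in KO #11. Called higher were 1, 0, 0 and 3, and 26, 30, 27 and 27 pointed down. With the replicate block, the calls were 7 in WT and 9 in KO esiHDAC4. The median log2 change of the list was -0.15, -0.26, -0.10 and -0.22, against 0.01, -0.06, 0.02 and -0.00 over all genes tested. In the fit without the block, the genes called lower were 11.9%, 9.52%, 9.52% and 11.9% of the list. They were 5.08%, 5.60%, 5.54% and 3.57% of all genes tested.

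DUT, the dUTPase that keeps uracil out of DNA and supplies dUMP to TYMS, fell in all 4 kinds of cells. Its CPM in KO esiCT were 88.2, 87.1 and 83.7 untreated and 33.3, 31.5 and 50.2 after OXPT (-1.17 log2, SE 0.25, edgeR adjusted p = 0.00401). DUT fell by 1.33 in WT (adjusted p = 0.00153), by 0.94 in KO esiHDAC4 (adjusted p = 0.0173) and by 0.99 in KO #11 (adjusted p = 0.0149). GLDC, the glycine decarboxylase, fell by 1.01 in KO esiCT, 0.86 in WT and 1.06 in KO esiHDAC4 (edgeR adjusted p = 0.00613, 0.0175 and 0.00392), at levels of 13.4 CPM or less. DTYMK, which phosphorylates dTMP, fell by 0.79 in KO esiCT (adjusted p = 0.0425), and its differences in WT and KO esiHDAC4 were -0.71 and -0.59 without a call. DCK, deoxycytidine kinase, fell by 1.04 in KO esiHDAC4 (adjusted p = 0.0397).

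PHGDH opens the synthesis of serine, the main donor of one-carbon units. It fell by 1.38 log2 in KO esiCT, 1.54 in WT and 1.54 in KO #11 (edgeR adjusted p = 0.00832, 0.00408 and 0.00452). In KO esiHDAC4 the PHGDH difference was -0.74 without a call. In WT the highest untreated PHGDH value, 441 CPM, was replicate 3, against 206 and 164, and without that library the fall was 0.98 (adjusted p = 0.0264). In KO #11 PHGDH went from 382, 366 and 337 CPM to 116, 123 and 134. PSAT1, an aminotransferase of the same pathway, was called in KO #11 alone and fell there by 1.88 (SE 0.53, adjusted p = 0.0272), from 490, 550 and 468 CPM to 89.9, 101 and 218. In KO esiCT, WT and KO esiHDAC4 the PSAT1 differences were -0.85, -1.07 and -0.17 without a call. MTHFD1L, the mitochondrial formyltetrahydrofolate synthetase, fell in KO #11 by 1.06 (SE 0.20, adjusted p = 0.00166), from 146, 145 and 126 CPM to 64.9, 71.9 and 63.1. Its differences in KO esiCT, WT and KO esiHDAC4 were -0.45, -0.59 and -0.35 without a call. Whether these responses differ between kinds of cells was tested over all genes for #11 against esiCT and gave no call.

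**Figure D4:**
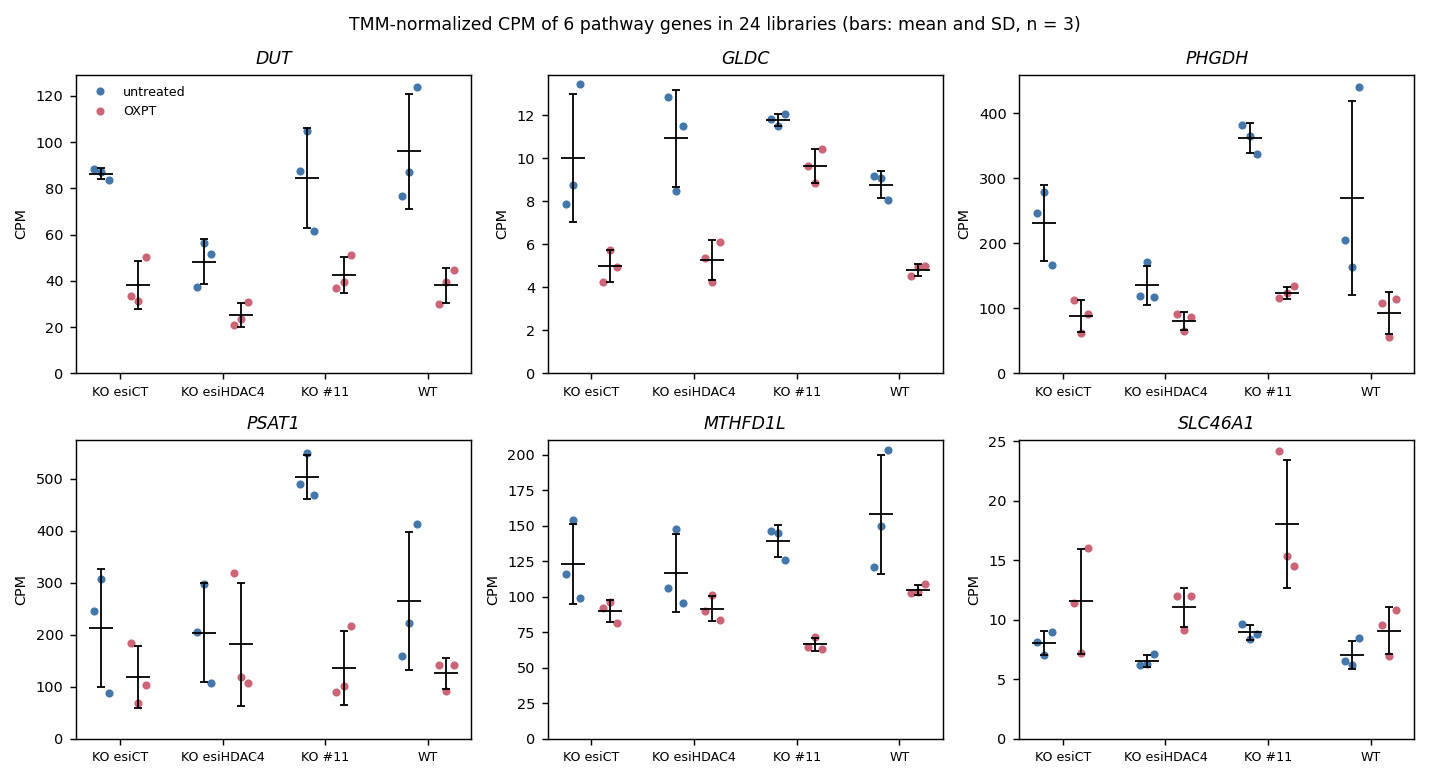
The vertical axes give CPM in each library on linear scales from 0 for 6 pathway genes, blue untreated and red after OXPT, with the mean and SD of 3 libraries. PSAT1 is highest in untreated KO #11, at 468 to 550 CPM, and DUT libraries after OXPT, at 20.9 to 51.3 CPM, lie below the untreated ones of the same kind of cells.

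Rises were fewer. NME1, a nucleoside diphosphate kinase, was called higher in KO esiCT by 1.70 log2 (SE 0.42, edgeR adjusted p = 0.0113) and in KO #11 by 1.33 (adjusted p = 0.0475). The call in KO #11 was made in 14 of 34 alternatives. In KO esiHDAC4 and WT the NME1 differences were 1.24 and 0.80 without a call. In KO esiCT the NME1 value of replicate 3 after OXPT was 1072 CPM against 250.5 and 349, and without that library the difference was 0.80 (adjusted p = 0.161). NME1 shares its locus with a readthrough gene and has a close paralogue, so its counts are uncertain. SLC46A1, the proton-coupled folate transporter, rose in KO #11 from 9.63, 8.38 and 8.83 CPM to 24.2, 15.4 and 14.6 (1.01 log2, SE 0.27, adjusted p = 0.02). DHODH, of pyrimidine synthesis, rose there by 0.81 (adjusted p = 0.0197). Mitochondrial SHMT2 (-0.54 to -0.11 log2), the reductase subunit RRM1 (-0.72 to 0.04) and the p53-inducible subunit RRM2B (1.01 to 1.41, SE 0.59 to 0.60) were not called after OXPT.

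Lists of other programmes are given for scale. Of 8 p53 targets, 8 were called higher in KO esiCT, 7 in WT, 8 in KO esiHDAC4 and 6 in KO #11. All 8 pointed up in each. CDKN1A, the cell cycle inhibitor, was up by 3.18, 2.55, 3.10 and 2.55 log2 (edgeR adjusted p = 1.65e-05, 0.000135, 2.15e-05 and 0.000136). MDM2, the p53 ubiquitin ligase, rose by 2.58, 1.84, 2.25 and 2.42 (adjusted p = 0.00192, 0.0192, 0.00495 and 0.00377). Of 14 S-phase genes tested, 3, 4, 2 and 0 were called lower, and 13, 13, 13 and 11 pointed down. The medians were -0.79, -0.86, -0.88 and -0.36. PCNA rose in all 4 kinds of cells, in KO #11 by 1.74 (edgeR adjusted p = 4.88e-06).

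The genes most like each member over the 8 group means were found by Pearson's r, as a description over groups that share libraries of one experiment. For SLC19A1 they were GALNS, WDR90 and C7orf50 (r = 0.991, 0.991 and 0.991), for GGH the desaturase SCD and NAA40 (0.991 and 0.987), and for RRM2 the mitotic genes KNSTRN and KIF20A with HNRNPA1 (0.985, 0.974 and 0.976). MTHFD2 was most like GTPBP2, PABPC1L and PTPDC1 (0.973, 0.969 and 0.966). Among the members, SLC19A1 and GGH had r = 0.874 and SHMT1 and GGH had r = 0.877.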

How the data were processed

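RNA-seq was deposited for 36 libraries of HCT-116 cells as gene counts in 3 columns (unstranded, forward and reverse), raw and not normalised. The submitters' processing notes name Trimmomatic 0.39, STAR 2.7.11a and hg38, the counting annotation being not given in the sources used here. Another quantification is described in the study's methods, so these deposited counts are not the values it tested. Of the 36 libraries, 24 fell into 8 groups of 3, and 12 WT libraries whose labels conflict on OXPT were put in no group.

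The unstranded column was used, because forward and reverse totals were nearly equal although the labels name a stranded kit. Identifiers were matched to GENCODE 44, which gave 62686 of 62757 (99.89%) a symbol. The 12356 genes whose mean count reached 64 in any group were fitted in 1 model over 24 libraries with edgeR 4.0.16 (quasi-likelihood test, TMM, prior count 2) in R 4.3.3. Calls required a fold over 1.5 and p under 0.05 after Benjamini-Hochberg adjustment. The fit was tested on simulated data. Fits with DESeq2 1.42.0, the strand columns, other filters, only the groups compared, a replicate block and each library left out were alternatives. Leaving out number 3 of every group, and a block that sets the #11 numbers apart, were chosen after seeing the data. Same-numbered libraries deviated together (r from 0.113 to 0.829, all 3 numbers) in 9 of 12 comparisons, and the numbers did not pair the libraries in the other 3, which set #11 against KO esiCT or WT.

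Named genes were the 9 members; per OXPT response up to 3 called pathway genes with the largest rise and up to 3 with the largest fall, without overlap between groups; SHMT2, RRM1, RRM2B and DTYMK; COL18A1, ENOSF1, FBXW7, HDAC4, CDKN1A, MDM2, PCNA and ASNS; and the 3 genes most like a member. ATF3, TRIB3, SLC7A11 and other pathway genes were named after their values were seen. Some genes that this rule names are not reported here. The members and all lists were chosen with earlier results of these data known. Promoters came from RefSeq (GRCh38.p14), with entries for 8 of 9 members.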

Additional observations from a re-analysis of the deposited data

How the results depend on the processing

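The 34 alternatives included 24 that each left out 1 library. Shares of all genes called under these settings are not given beside the counts, so no count of members or pathway genes below is read as a result. The number of members called after OXPT in KO esiCT was 2 in place of 1 with DESeq2, with the replicate block, with the block that set the #11 numbers apart and without number 3 of every group, and 1 to 2 when single libraries were left out. In WT these 4 settings gave 2, 2, 2 and 3, and 1 when single libraries were left out. In KO esiHDAC4 the forward column gave 2, the block 2, the block with #11 apart 3, only the groups compared 2 and no number 3 gave 3, with 1 to 2 for single libraries. In KO #11, where 0 were called, the reverse column, the forward column, DESeq2 and the block with #11 apart each gave 1, only the groups compared 2 and no number 3 gave 4, with 0 to 1 for single libraries. For #11 under OXPT no number 3 gave 2, and for the #11 difference in response 1. For KO #11 against WT under OXPT the 1 call became 0 without a filter, with a filter in every group and with only the groups compared, and 2 without number 3, with 0 to 1 for single libraries.

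Of the pathway genes, the 6 calls in KO esiCT became 2 with only the groups compared and 3 to 7 without single libraries. The 4 in WT became 7 with the block, 8 with #11 apart, 0 with only the groups compared, 12 without number 3 and 3 to 7 without single libraries. The 4 in KO esiHDAC4 became 7 with DESeq2, 9 with the block, 11 with #11 apart, 7 with only the groups compared, 9 without number 3 and 2 to 7 without single libraries. The 8 in KO #11 became 5 in the reverse column, 14 with only the groups compared, 16 without number 3 and 2 to 10 without single libraries. ENOSF1 in KO #11 turned from -0.79 to 0.06 in the forward column and 0.055 in the reverse column, which count the reads shared with TYMS. The cause of the other shifts was not tested. Depth limits low genes, and TYMS rests on 42 to 638 unshared counts a library.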

Other observations

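The 12 WT libraries in no group are given in CPM of gene counts without TMM scaling. SLC19A1 ranged from 6.29 to 57.1 with a median of 22.3. Libraries titled for #11 without OXPT held 56.9, 57.1 and 27.9, and those titled for #11 with OXPT 11.98, 11.3 and 16.8. Libraries titled for HDAC4 silencing held 36.2, 38.2 and 47.4 without OXPT and 8.10, 6.29 and 11.7 with it. On the same scale SLC19A1 was 47.0 to 72.6 in WT untreated, 5.25 to 10.5 in WT OXPT and 17.4 to 25.5 in KO #11 OXPT. Over the 12 libraries TYMS ranged from 8.47 to 38.4, RRM2 from 83.1 to 547, MTHFD2 from 90.6 to 463.5 and COL18A1 from 11.7 to 147. The treatment of these libraries is not settled by the labels, so no comparison was made.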
